A study of Mus musculus with 4 samples.

Results

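The Cyp2c genes encode cytochromes P450 of subfamily 2C, haem enzymes of the endoplasmic reticulum that oxidise drugs, steroids and polyunsaturated fatty acids. In the mouse they form a large gene cluster on chromosome 19 that arose by repeated duplication, and several copies are expressed in intestinal epithelium as well as in liver. They were followed here in mouse intestinal organoids, epithelial cultures grown from wild type C57BL/6 intestine (age 8 to 12 weeks), which had received 8 Gy of irradiation 36 hours before RNA was taken. All 4 libraries carry that irradiation. There were 2 vehicle libraries and 2 libraries from organoids given SGC-CBP30, a small molecule that binds the bromodomains of the acetyltransferases CBP and p300. The second SGC-CBP30 library has SGC-CBP31 in its treatment label and was placed by its title and the stated group size. Whether replicates are separate cultures is not given, so no error below covers more than differences between libraries, which may be technical. An SD is the spread of a gene's own libraries, while an SE of the fit also draws on the variation of other genes.

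The members were 9 gene names of the chromosome 19 cluster: Cyp2c29, Cyp2c38, Cyp2c40, Cyp2c55, Cyp2c65, Cyp2c66, Cyp2c67, Cyp2c68 and Cyp2c69. Of these, 8 had a row among the 51509 genes of the table, and the expression of Cyp2c69 was not analysed here. A member needed at least 10 counts over the 4 libraries to be described, which 7 reached. Cyp2c67 lay nearest inside that limit with 260 counts, and Cyp2c40 lay outside it with 3 counts, all in vehicle replicate 1. The names were chosen by their counts and log2 fold changes in this same comparison. Their differences between the groups are therefore given as a description, with no test.

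CYP2C enzymes take electrons from the P450 reductase and insert oxygen into their substrates. With arachidonic acid they make epoxides and hydroxylated acids, lipid mediators that soluble epoxide hydrolase and other enzymes clear. In liver and gut the transcription of several family members is set by HNF4 factors and raised by the xenobiotic receptors PXR and CAR, which pair with RXR on DNA. Cyp2c29 and Cyp2c55 are known in the mouse as genes that such receptors induce.

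The sequences just before the gene starts show how closely some members are related. RefSeq promoter entries (GRCm38.p6) were found for all 9 member names, and the 250 bases before the start were read, 5′ to 3′ on the gene's own strand. Both strands were searched for TATAAA (letters of the TATA box), for CAAAGTC (the core of an HNF4 site), and for AGGTCA as well as the variant AGTTCA (half-sites of nuclear receptors). No match overlapped another. Of the windows below, Cyp2c55 had the largest difference between the groups, Cyp2c65 stands for a pair of close copies, Cyp2c29 and Cyp2c38 are related copies that differed in opposite directions, and Cyp2c68 was the most abundant member that was lower. Matches are in capitals.
Cyp2c55, chr19:39006769-39007018, plus strand: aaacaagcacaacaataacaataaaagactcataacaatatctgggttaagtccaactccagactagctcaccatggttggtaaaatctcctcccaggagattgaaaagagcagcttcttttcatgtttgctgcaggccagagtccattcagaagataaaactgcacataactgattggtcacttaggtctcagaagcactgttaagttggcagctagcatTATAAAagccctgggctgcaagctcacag
Cyp2c65, chr19:39060756-39061005, plus strand: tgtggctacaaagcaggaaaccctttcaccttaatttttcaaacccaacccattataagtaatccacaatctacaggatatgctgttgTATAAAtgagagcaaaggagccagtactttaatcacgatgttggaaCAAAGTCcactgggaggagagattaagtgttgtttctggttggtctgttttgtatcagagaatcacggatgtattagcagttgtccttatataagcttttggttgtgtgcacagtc
Cyp2c29, chr19:39286835-39287084, plus strand: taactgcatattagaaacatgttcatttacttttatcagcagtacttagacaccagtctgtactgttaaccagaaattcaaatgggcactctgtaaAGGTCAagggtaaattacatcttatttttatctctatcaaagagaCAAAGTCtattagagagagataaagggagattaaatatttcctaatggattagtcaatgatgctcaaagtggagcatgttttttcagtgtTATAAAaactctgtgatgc
Cyp2c38, chr19:39463076-39463325, minus strand: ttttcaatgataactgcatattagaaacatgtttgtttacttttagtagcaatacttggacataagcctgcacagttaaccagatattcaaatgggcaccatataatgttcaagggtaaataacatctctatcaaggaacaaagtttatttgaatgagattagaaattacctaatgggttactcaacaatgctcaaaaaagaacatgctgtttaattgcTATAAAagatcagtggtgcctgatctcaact
Cyp2c68, chr19:39741102-39741351, minus strand: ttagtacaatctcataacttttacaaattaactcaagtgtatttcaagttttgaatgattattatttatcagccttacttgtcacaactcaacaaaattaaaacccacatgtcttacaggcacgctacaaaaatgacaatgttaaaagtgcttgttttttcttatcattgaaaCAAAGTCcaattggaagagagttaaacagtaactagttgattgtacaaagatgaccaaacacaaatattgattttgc

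The HNF4 core stood in 7 of the 9 member windows, all except Cyp2c55 and Cyp2c38, and in 3.84% of all 32851 RefSeq windows of the same length. The members are copies of one another, so these 7 are not independent of each other. The TATA box letters stood in 6 of 9, against 12.37% of all windows, and these 6 are not independent either. In Cyp2c65 and Cyp2c66 they began at base -162 and -150 from the start. In Cyp2c29, Cyp2c38, Cyp2c55 and Cyp2c67 they began at -40 to -19. Among the members, AGGTCA was found only in the Cyp2c29 window (14.02% of all windows). The variant AGTTCA was found in those of Cyp2c40 and Cyp2c69 (11.84%). A match describes letters, not binding. By global alignment, 74.8% of the 250 bases were identical between Cyp2c29 and Cyp2c38, 83.2% between Cyp2c65 and Cyp2c66, 75.2% between Cyp2c67 and Cyp2c68, and 57.2% between Cyp2c29 and Cyp2c55. The RefSeq starts are not at matching points in all copies, and bases without a partner count as not identical. The first bases of the Cyp2c67 window recur further inside that of Cyp2c68, so their value understates their likeness. The Cyp2c68 window begins at 39741102, beyond the gene's own span, which reaches 39741054. Letters absent from a window may therefore lie just outside it. The Cyp2c29 window starts inside the gene's span in the table, which begins further upstream at 39269405.

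Transcripts of the family as a whole were more abundant with SGC-CBP30. Summed over the 8 members with a row, they took 0.193% of all counts in vehicle replicate 1 (exact 95% binomial interval 0.191 to 0.195) and 0.193% in replicate 2 (0.191 to 0.195). With SGC-CBP30 they took 0.548% (0.544 to 0.551) and 0.566% (0.562 to 0.569). Such intervals cover counting error only. On the CPM scale (counts over the TMM-scaled library size) the sum went from 1983 ± 3.89 to 5435 ± 97.4 (SD, n = 2), a log2 fold change of 1.45 ± 0.056 (SE), or 2.74-fold. Reads moved between these members stay within such a sum. Reads exchanged with Cyp2c39, Cyp2c53-ps or Cyp2c69, which share sequence with members, do not.

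Beneath that sum the members split. Cyp2c29, Cyp2c55, Cyp2c65 and Cyp2c66 were higher with SGC-CBP30, and Cyp2c38, Cyp2c67 and Cyp2c68 were lower. In each of these 7 genes both SGC-CBP30 libraries lay on the same side of both vehicle libraries, as they did in 63.1% of all 14684 genes tested. In the edgeR fit over all genes, 4 members passed an adjusted p of 0.05 as higher and 3 as lower, where 30.0% of all tested genes passed in either direction, 13.6% higher and 16.3% lower. With library totals as the scale the whole table split into 2907 higher and 1924 lower, in place of 2004 and 2397. Because the names were proposed from this comparison, nothing is read from the members' count. In bulk RNA, fewer cells that express a gene and less of its RNA per cell cannot be told apart.

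**Figure D1:**
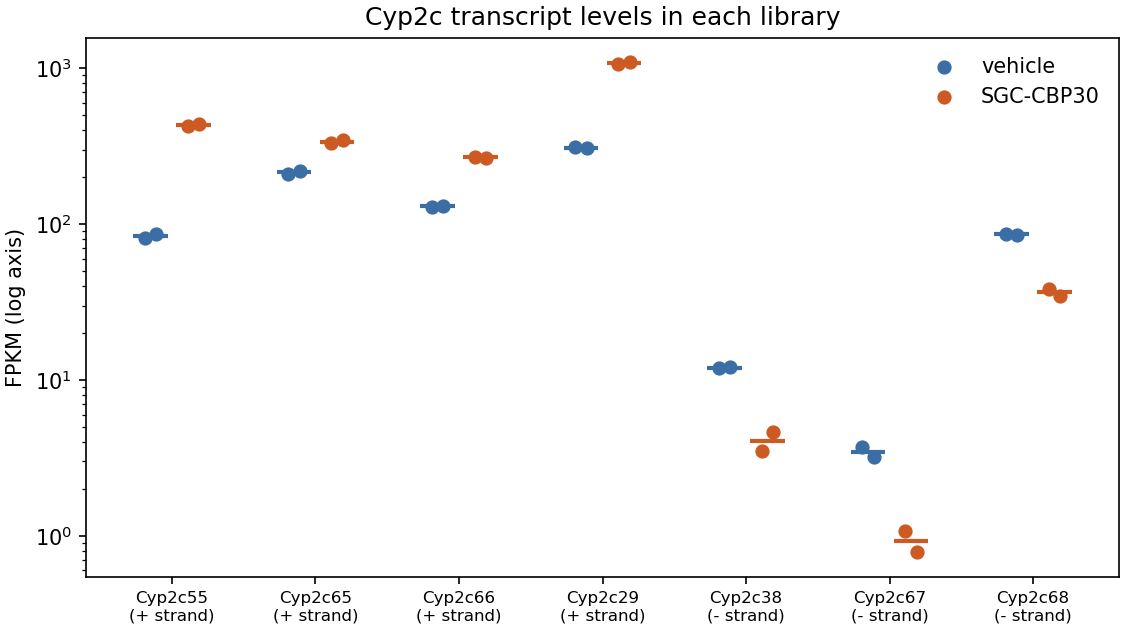
FPKM on a log axis (vertical) for the 7 described members in cluster order (horizontal), with 1 point per library and a bar at each group's mean. Cyp2c29 is highest in both groups, and Cyp2c55 moves from 84.3 to 431 FPKM, past Cyp2c65 and Cyp2c66.

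Cyp2c29 (ENSMUSG00000003053, GRCm38 chromosome 19, 39269405 to 39330713, plus strand), an arachidonic acid epoxygenase best known from liver, was the most abundant member in every library. Its level per length was 312 and 306 FPKM in the vehicle libraries and 1062 and 1093 FPKM with SGC-CBP30. The groups were far apart compared with the replicates. The log2 fold change was 1.80 ± 0.057 (SE), or 3.48-fold, and rested on 15012 to 59047 counts per library. The span of the pseudogene Cyp2c53-ps overlaps that of Cyp2c29 by 5581 bases on the same strand, so reads there are uncertain in origin.

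Cyp2c55 (ENSMUSG00000025002, chromosome 19, 39007019 to 39042693, plus strand), which oxidises arachidonic acid and is known from colon, differed most. It stood at 81.7 and 86.9 FPKM in the vehicle libraries and at 425 and 437 FPKM with SGC-CBP30. The log2 fold change was 2.35 ± 0.061, or 5.11-fold. In vehicle its level could not be separated from that of Cyp2c68 (86.7 and 85.1 FPKM). With SGC-CBP30 it took the place after Cyp2c29, above Cyp2c65 and Cyp2c66 in both libraries.

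Cyp2c65 (ENSMUSG00000067231, chromosome 19, 39061015 to 39093944, plus strand) and Cyp2c66 (ENSMUSG00000067229, chromosome 19, 39113898 to 39187072, plus strand) are neighbouring copies expressed along the gastrointestinal tract. Cyp2c65 gave 211 and 221 FPKM with vehicle and 331 and 344 FPKM with SGC-CBP30. Cyp2c66 gave 129 and 132 FPKM with vehicle and 270 and 267 FPKM with SGC-CBP30. Both were higher in either SGC-CBP30 library, by a log2 fold change of 0.65 ± 0.058 for Cyp2c65 and 1.05 ± 0.058 for Cyp2c66. The ratio of Cyp2c66 to Cyp2c65 in FPKM was 0.610 and 0.597 in vehicle libraries and 0.816 and 0.776 in SGC-CBP30 libraries. A ratio within a library does not depend on how libraries are scaled.

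Cyp2c68 (ENSMUSG00000074882, chromosome 19, 39688834 to 39741054, minus strand), one of a group of near-identical copies with Cyp2c40, Cyp2c67 and Cyp2c69, was the most abundant of the lower members. It stood at 86.7 and 85.1 FPKM with vehicle and at 38.6 and 34.5 FPKM with SGC-CBP30. The log2 fold change was -1.23 ± 0.074, or 2.35-fold lower. Its copy Cyp2c67 (ENSMUSG00000062624, chromosome 19, 39608842 to 39649051, minus strand) was scarce, with 115 and 89 counts in the vehicle libraries and 32 and 24 with SGC-CBP30. Those counts correspond to 3.73 and 3.21 FPKM against 1.08 and 0.785 FPKM, and to a log2 fold change of -1.90 ± 0.29. Cyp2c67 therefore had the widest error of the 7.

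Cyp2c38 (ENSMUSG00000032808, chromosome 19, 39389556 to 39463075, minus strand), another arachidonic acid epoxygenase, is the closest relative of Cyp2c29 among the members described. It had 11.9 and 12.2 FPKM with vehicle and 3.49 and 4.64 FPKM with SGC-CBP30, a log2 fold change of -1.56 ± 0.13, or 2.95-fold lower. The coding sequences of the pair were 89.1% identical. Cyp2c29 exceeded Cyp2c38 by 26.3 and 25.2 times in FPKM in the vehicle libraries and by 305 and 236 times in the SGC-CBP30 libraries. The ratio was far higher in both SGC-CBP30 libraries than in either vehicle library.

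The authors' deposited table gives log2 fold changes of 2.35 for Cyp2c55, 1.80 for Cyp2c29, 1.05 for Cyp2c66, 0.65 for Cyp2c65, -1.23 for Cyp2c68, -1.56 for Cyp2c38 and -1.90 for Cyp2c67. These equal the values of the DESeq2 fit made here from the same counts, so they are not an independent estimate. From the highest to the lowest, the order per length in vehicle was Cyp2c29, Cyp2c65, Cyp2c66, then Cyp2c68 with Cyp2c55, then Cyp2c38 and Cyp2c67. With SGC-CBP30 it was Cyp2c29, Cyp2c55, Cyp2c65, Cyp2c66, Cyp2c68, Cyp2c38 and Cyp2c67. Only Cyp2c68 and Cyp2c55 in vehicle were neighbours whose libraries overlapped.

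**Figure D2:**
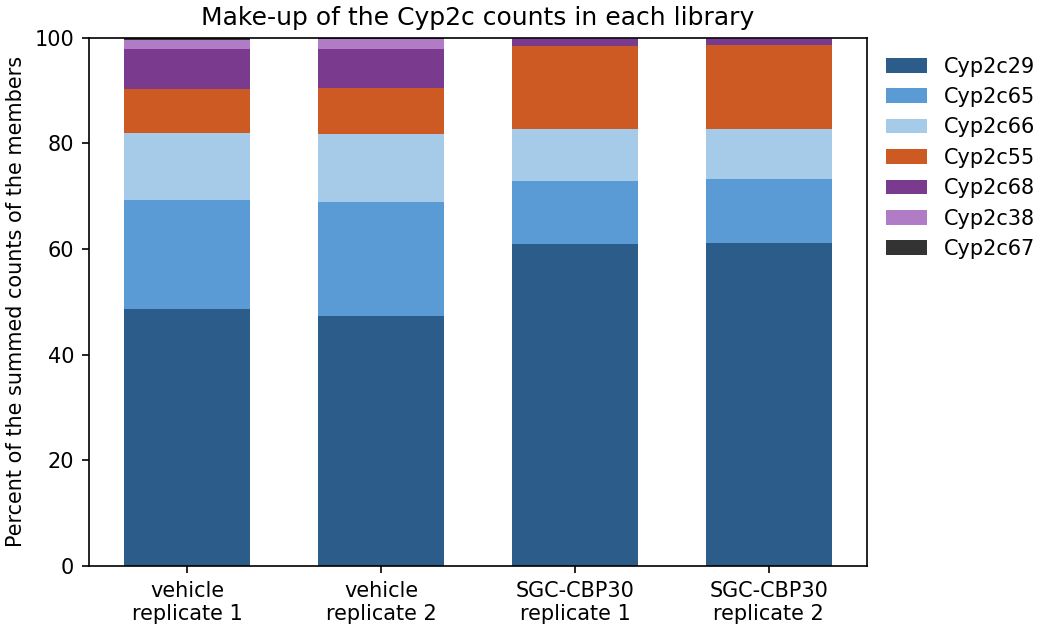
Share of each member in the summed counts of the members (vertical, percent) in each of the 4 libraries (horizontal). The orange Cyp2c55 block and the dark blue Cyp2c29 block are larger in both SGC-CBP30 libraries, and the purple blocks of Cyp2c68 and Cyp2c38 are smaller.

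The make-up of the family differed accordingly. Cyp2c29 gave 48.0% ± 0.869 of the members' counts in vehicle and 61.0% ± 0.153 with SGC-CBP30 (SD, n = 2). Cyp2c55 went from 8.53% ± 0.325 to 15.9% ± 0.0325. Cyp2c65 had a smaller share, 12.0% ± 0.130 against 21.1% ± 0.561, although its own level was higher. The 4 members on the minus strand together gave 9.68% and 9.46% of the sum in the vehicle libraries and 1.47% and 1.36% with SGC-CBP30. Shares of counts are not per length, so the longer Cyp2c29 transcript (3061 bases in the table, against 1724 to 2037 for Cyp2c55, Cyp2c65, Cyp2c66, Cyp2c67, Cyp2c68 and Cyp2c40) weighs more in them.

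**Figure D3:**
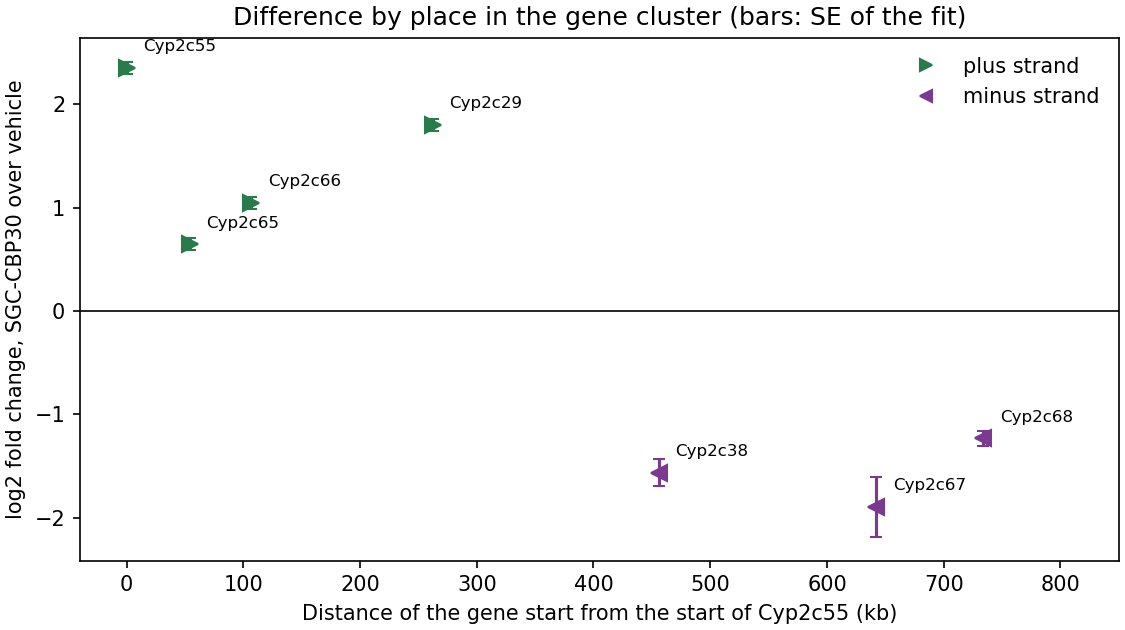
Log2 fold change between SGC-CBP30 and vehicle (vertical, positive where higher with SGC-CBP30, bars are the SE of the fit) against the distance of each gene's start from the start of Cyp2c55 in kb (horizontal), with triangles pointing along the strand. The 4 plus strand members lie above 0 within 262 kb, and the 3 minus strand members lie below 0 from 456 kb on.

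Position and strand followed the same division. The 4 members that were higher lie side by side on the plus strand, with starts at 0, 54.0, 107 and 262 kb from the start of Cyp2c55. The 3 that were lower lie on the minus strand, with starts at 456, 642 and 734 kb. Strand and position cannot be told apart in so few genes. As sums, the plus strand members were 2.99-fold higher (log2 fold change 1.58 ± 0.057) and the minus strand members 2.47-fold lower (-1.31 ± 0.068), a division made after the values were seen. The minus strand sum went from 190 ± 2.77 to 76.7 ± 2.98 CPM.

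**Figure D4:**
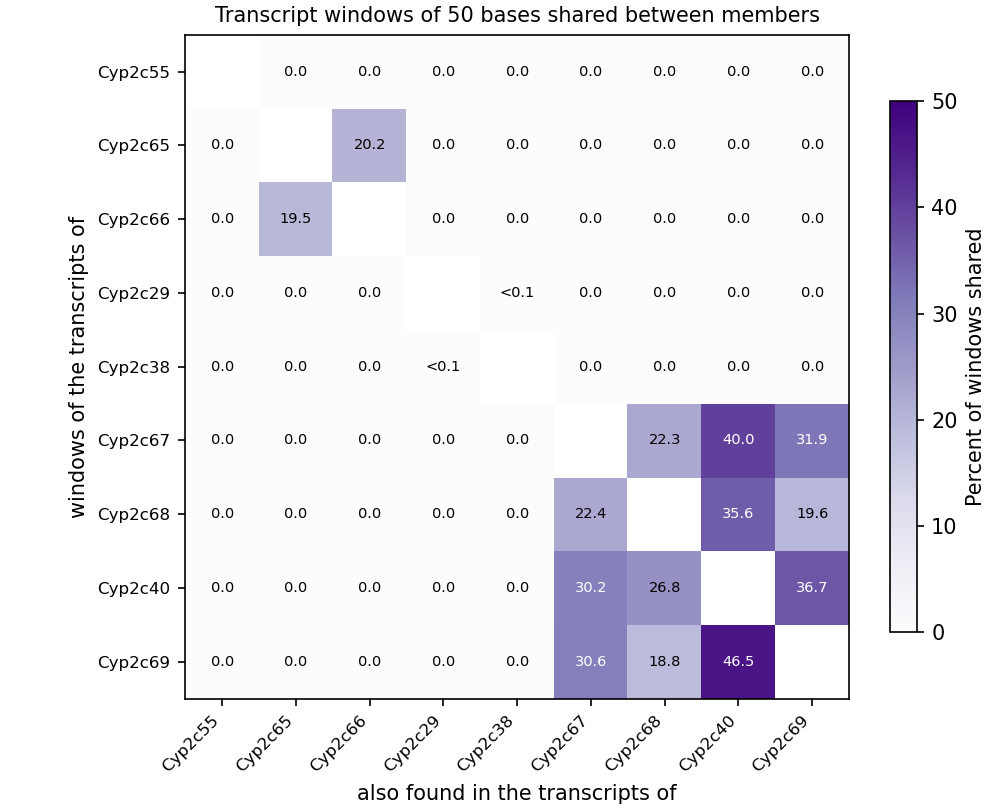
Percent of the 50-base windows in the transcripts of each member (rows) that also occur in those of another member (columns), from GENCODE M21. Dark cells stand between Cyp2c40, Cyp2c67, Cyp2c68 and Cyp2c69 and between Cyp2c65 and Cyp2c66, and the block that joins plus strand to minus strand members is at or near 0.

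How far reads could be exchanged was read from the transcripts. Of the 50-base windows in the GENCODE M21 transcripts of Cyp2c67, 52.8% also occurred in another gene, and for Cyp2c68 it was 43.3%. Windows of 100 bases gave 23.7% and 19.8%. Cyp2c65 and Cyp2c66 shared 20.2% and 19.5% of their windows with each other and were 96.3% identical in coding sequence. Cyp2c67 and Cyp2c68 were 97.1% identical, so that the division of counts within either group is uncertain. Cyp2c55 shared 0.51% of its windows, all with Cyp2c52-ps, and Cyp2c29 shared 4.25%, mainly with Cyp2c53-ps. Among the 20 pairs of a plus strand and a minus strand member only Cyp2c29 and Cyp2c38 had a window in common, at most 0.070% of either. The sources used here give neither the read length nor how reads with several matches were counted.

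Other genes of the family showed both directions too. Of 9 names listed, 6 had a row and 4 were tested: 1 rose, 2 fell and 1 did not pass the threshold, with a median log2 fold change of -0.47 against 0.0096 for all tested genes. With vehicle replicate 1 left out, Cyp2c70 dropped out and the median was 0.61. Cyp2c70, which makes muricholic acids from other bile acids, had 18 and 14 counts with vehicle and 0 in both SGC-CBP30 libraries. With the SGC-CBP30 group set to a floor of 3 counts in all, that is at least 10.4-fold lower (edgeR adjusted p = 3.7e-04). DESeq2 gave no adjusted p for it, and it was not tested without vehicle replicate 1. It too lies on the minus strand of the cluster, beyond Cyp2c68, at 40153353 to 40187333. Cyp2c23, an epoxygenase gene that lies apart on the same chromosome at 44005022 to 44029208 on the minus strand, fell from 8.23 ± 2.90 to 2.74 ± 0.471 CPM (log2 fold change -1.57 ± 0.26, edgeR adjusted p = 5.1e-05).

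Both pseudogenes beside the higher members had more counts with SGC-CBP30. Cyp2c53-ps shared 7.32% of its 50-base windows with the far more abundant Cyp2c29, and Cyp2c52-ps 0.71% with Cyp2c55. What part reads of those members had in these differences was not tested. Cyp2c52-ps, just before Cyp2c55, had 55 and 33 counts with vehicle and 76 and 85 with SGC-CBP30 (log2 fold change 0.84 ± 0.29, edgeR adjusted p = 0.0294). It no longer passed when vehicle replicate 2 was left out (0.58, adjusted p = 0.226), when SGC-CBP30 replicate 2 was (adjusted p = 0.0957), or in DESeq2 (adjusted p = 0.167). Cyp2c53-ps had 63 and 59 counts with vehicle and 89 and 106 with SGC-CBP30 (0.63 ± 0.24, edgeR adjusted p = 0.0509). It passed when scaled by library totals (adjusted p = 0.0278) and when genes needed 50 counts in 2 libraries (adjusted p = 0.0489). Cyp2c39 and Cyp2c37 had 5 counts and 1 count over the 4 libraries, and Cyp2c73-ps had 0.

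The cluster spans 1211 kb from Cyp2c52-ps to Cyp2c70 and holds no other tested gene. On its Cyp2c52-ps side, the chromatin remodelling gene Hells, 5.60 kb away, fell by 0.47 ± 0.098 on the log2 scale (edgeR adjusted p = 6.8e-04). Tbc1d12 had 0.34 ± 0.15 and Noc3l -0.16 ± 0.13, neither past the threshold. Tbc1d12 passed it when vehicle replicate 1 was left out (0.60, adjusted p = 0.0108), when scaled by library totals (adjusted p = 0.0396) and with the replicate number in the model (adjusted p = 0.0445), and had 0.13 when vehicle replicate 2 was left out. On the other side, Pdlim1 at 33.8 kb had 0.051 ± 0.081, not past the threshold, while Aldh18a1, a gene of proline synthesis, fell by 0.34 ± 0.062 (edgeR adjusted p = 1.7e-04). With all libraries in the fit, each of these 5 neighbours differed by less than Cyp2c65, the member that differed least.

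**Figure D5:**
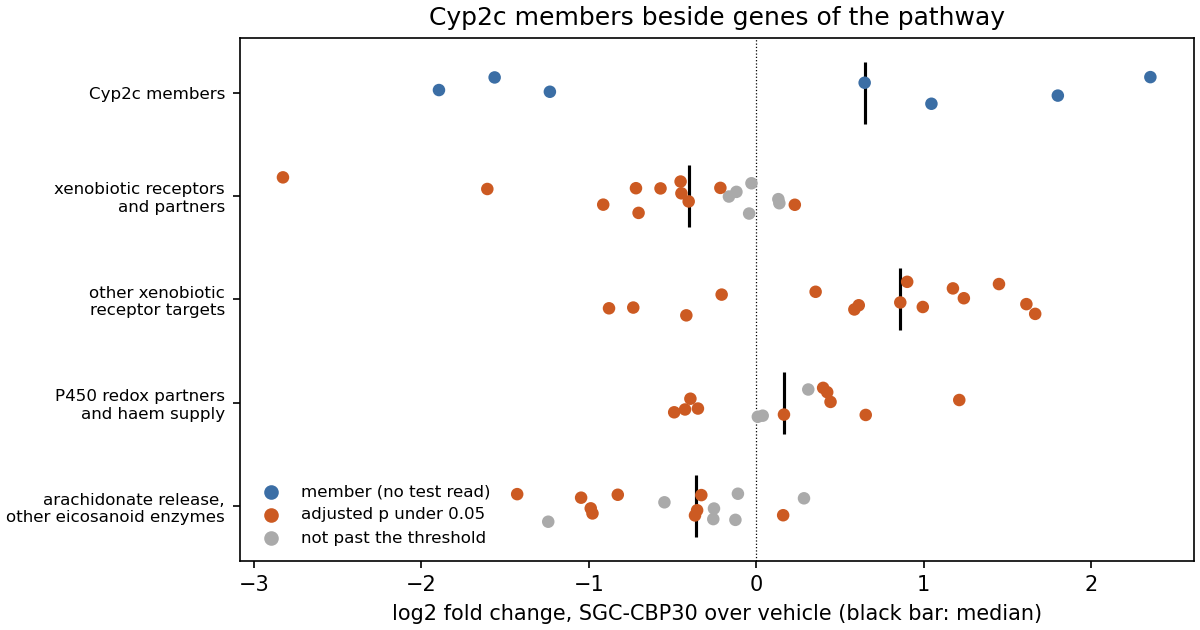
Log2 fold change between SGC-CBP30 and vehicle (horizontal, positive where higher with SGC-CBP30) for the 7 described members and for 4 lists of pathway genes (vertical), 1 point per gene, orange where the edgeR adjusted p is under 0.05, with a black bar at the median. The other receptor targets have their median at 0.86 and the receptors and partners at -0.40.

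In a list of 20 other genes taken as xenobiotic receptor targets, most of those tested rose, counted as below by edgeR's adjusted p. This list and those below were drawn up with earlier results of these data known, so their counts are a description. Of 15 tested, 11 rose and 4 fell, where 13.6% of all tested genes rose and 16.3% fell. The median log2 fold change was 0.86 against 0.0096 for all tested genes. Cyp3a11, the main drug-metabolising P450 of mouse gut and liver, rose by 1.67 ± 0.057 and its relative Cyp3a25 by 1.24 ± 0.058. The carboxylesterase gene Ces2a rose from 595 ± 17.3 to 1625 ± 72.1 CPM and the glutathione S-transferase gene Gstm1 from 939 ± 26.0 to 2119 ± 3.98 CPM (edgeR adjusted p = 1.1e-15 and 2.6e-14). The 4 that fell were named after seeing their values, not by the rule. Among them were the aldehyde dehydrogenase genes Aldh1a1 (-0.88 ± 0.056) and Aldh1a7 (-0.73 ± 0.073). The others were the glutathione S-transferase gene Gsta2 (-0.42 ± 0.098) and the transporter gene Abcc3 (-0.21 ± 0.064). Abcc3 did not pass when vehicle replicate 1 (adjusted p = 0.132) or vehicle replicate 2 (adjusted p = 0.264) was left out, or when scaled by library totals (adjusted p = 0.107).

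Genes of the receptors and their partners mostly fell or did not pass. Of 17 tested receptors and partners 1 rose, 10 fell and 6 did not pass the threshold, with a median log2 fold change of -0.40. The coactivator gene Ppargc1a fell by 1.61 ± 0.12, the repressor gene Nr0b2 by 2.83 ± 0.31, the antioxidant response factor gene Nfe2l2 by 0.70 ± 0.058 and the HNF4 paralogue gene Hnf4g by 0.72 ± 0.061 (edgeR adjusted p from 1.0e-10 for Ppargc1a to 9.0e-08 for Nr0b2). Named after their values were seen, Nr1i2, which encodes PXR, stood at 115 ± 1.20 and 113 ± 3.49 CPM (log2 fold change -0.029 ± 0.069, adjusted p = 0.801), and Nr1i3, which encodes CAR, fell from 23.3 ± 0.056 to 12.4 ± 0.562 CPM (adjusted p = 4.6e-06). Rxra, the partner of both, fell by 0.45 ± 0.067, and Hnf4a had 0.14 ± 0.057 (adjusted p = 0.0708). Hnf4a passed when SGC-CBP30 replicate 1 (adjusted p = 0.0399) or SGC-CBP30 replicate 2 (adjusted p = 3.9e-04) was left out, and when scaled by library totals (adjusted p = 0.00433). The 1 that rose was Arnt, partner of the Ah receptor (0.23 ± 0.078, adjusted p = 0.0288). It did not pass when vehicle replicate 1 (adjusted p = 0.119) or vehicle replicate 2 (adjusted p = 0.280) was left out, or in DESeq2 (adjusted p = 0.138).

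Genes that supply P450 enzymes with electrons and haem went both ways. Of 13 tested 6 rose, 4 fell and 3 did not pass the threshold (median log2 fold change 0.17). With SGC-CBP30 replicate 1 left out, 8 in place of 10 were called and the median was 0.10. Alas1, the rate-limiting enzyme of haem synthesis, rose from 199 ± 4.17 to 460 ± 6.71 CPM (log2 fold change 1.21 ± 0.060, edgeR adjusted p = 4.3e-14). Por, the P450 reductase that hands electrons to CYP2C enzymes, rose by 0.42 ± 0.058 and cytochrome b5 (Cyb5a) by 0.65 ± 0.058. The cytochrome b5 reductase gene Cyb5r3 fell by 0.43 ± 0.065.

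Among other enzymes of arachidonic acid metabolism, more genes fell than rose. Of 16 tested 1 rose, 8 fell and 7 did not pass the threshold (median log2 fold change -0.36, and -0.66 with SGC-CBP30 replicate 1 left out). Cyp2j6, a P450 of the epoxygenase family CYP2J, fell from 1429 ± 12.6 to 692 ± 7.58 CPM (log2 fold change -1.05 ± 0.056, edgeR adjusted p = 2.3e-13), and Cyp2j9 fell by 0.99 ± 0.15. The hydroxylase genes Cyp4f16 and Cyp4f14 fell by 1.43 ± 0.063 and 0.83 ± 0.058. Named after their values were seen, Ephx2, which encodes soluble epoxide hydrolase, fell by 0.37 ± 0.058, Pla2g4a, which encodes a phospholipase that frees arachidonic acid, by 0.98 ± 0.20, and the 1 that rose was the microsomal epoxide hydrolase gene Ephx1 (0.16 ± 0.060, adjusted p = 0.0477). Ephx1 did not pass when vehicle replicate 1 (adjusted p = 0.219), vehicle replicate 2 (adjusted p = 0.431) or SGC-CBP30 replicate 1 (adjusted p = 0.0798) was left out, or in DESeq2 (adjusted p = 0.0879).

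The libraries held 16433117 to 18087250 counts each. All 10 markers of intestinal epithelium were present, at summed levels of 9981 to 9997 CPM with vehicle and 11591 to 12723 CPM with SGC-CBP30. The 12 small intestinal enterocyte markers summed to 44421 to 44719 CPM with vehicle and 33393 to 35427 CPM with SGC-CBP30. Of 11 tested, 6 fell, 1 rose and 4 did not pass, and their part in the Cyp2c differences was not tested. The largest part of that sum, read after seeing the values, was Sis, which fell from 15115 ± 19.4 to 7284 ± 703 CPM. The 1 that rose was Apoa4, from 4267 ± 155 to 5760 ± 613 CPM. Of 10 colonocyte markers Car1 and Hoxb13 were at 0, and the list summed to 1213 to 1269 CPM with vehicle and 1184 to 1368 CPM with SGC-CBP30. That sum was mostly Muc3 (798 ± 37.6 and 992 ± 139 CPM), while 4 of the 8 tested fell, 2 rose and the median log2 fold change was -1.15. Those that rose, read after seeing the values, were Muc3 and Ggh (73.6 ± 6.50 and 129 ± 2.14 CPM). Muc3 did not pass in 1 of the alternative fits. Named after seeing their values, the water channel gene Aqp8 fell from 85.2 ± 2.15 to 2.06 ± 0.496 CPM, the chloride exchanger gene Slc26a3 from 269 ± 7.58 to 146 ± 11.2 CPM, and the carbonic anhydrase gene Car4 from 1.12 ± 0.172 CPM to 0 in both libraries. Their part in the Cyp2c differences was not tested either. Summed levels with vehicle and with SGC-CBP30 were 4477 to 4610 and 4728 to 4771 CPM for 7 goblet markers, 4202 to 4294 and 3395 to 3733 CPM for 7 Paneth markers, 649.6 to 694 and 629.9 to 737 CPM for 7 enteroendocrine markers, 25.4 to 27.8 and 18.6 to 20.9 CPM for 5 tuft markers. The 6 stem and cycling markers summed to 522 to 559.9 CPM with vehicle and 378 to 421 CPM with SGC-CBP30 (3 fell, 1 rose). Named after seeing their values, Olfm4 fell from 192 ± 18.2 to 55.5 ± 1.46 CPM, whereas the stem cell receptor gene Lgr5 rose from 32.8 ± 1.31 to 48.3 ± 3.50 CPM and the proliferation gene Mki67 did not pass (126 ± 3.15 and 122 ± 15.4 CPM). Of 8 hepatocyte markers Cyp7a1 and Ahsg were at 0 and Alb at 0.860 and 0.697 CPM. That list summed to 895 to 933 CPM with vehicle and 369 to 387 CPM with SGC-CBP30, nearly all of it Cps1, which enterocytes also express (896 and 368 CPM). Gastric markers (3.13 to 3.62 and 2.68 to 4.64 CPM), fibroblast and endothelial markers (17.3 to 18.2 and 11.7 to 13.6 CPM) and leukocyte markers (2.26 to 3.17 and 1.31 to 1.65 CPM) were low.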

How the data were processed

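All values came from 1 deposited table of 4 RNA-seq libraries. Per the file headers, the authors gave raw whole-number counts per gene, FPKM (counts scaled by the deposited gene length and a library total) and a log2 fold change for SGC-CBP30 over vehicle. The sources used here do not name the method of that fold change, but its values for the members equal those of the DESeq2 fit made here. Tools listed in the submitters' processing notes, with no role given, are featureCounts 1.5.0-p3, StringTie 1.3.3b and HISAT2 2.0.5, and the build listed is mm9. The coordinates are those of GRCm38, however: 98.5% of 51477 identifiers shared with GENCODE M21 had identical ones, all 15 Cyp2c rows included. The table held here stops within its last line, among genes with 0 counts.

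The test was edgeR's (version 4.0.16, in R 4.3.3) with filterByExpr, TMM, robust dispersions, quasi-likelihood F test, Benjamini-Hochberg adjustment over 14684 genes, called at an adjusted p under 0.05. The SE is the log2 fold change over the square root of F. No covariate was used. For the member sum, 1 feature replaced the members. DESeq2 1.42.0, other scalings and filters, the replicate block and each library left out were alternatives. Replicates differed by more than counting noise (chi-square per degree of freedom 2.97 for vehicle and 6.22 for SGC-CBP30).

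The members and lists were chosen with earlier results of these data known. The text names the members, other Cyp2c genes with at least 10 counts, up to 4 called genes of smallest p per pathway list, 3 tested neighbours on each side (1 of them is not reported here), and the 5 genes nearest to Cyp2c55 in profile. Others are said to be named after their values were seen. At these depths 3 counts equal 0.166 to 0.183 CPM. Whether counting used strand is not stated. CPM values are counts over TMM-scaled library sizes. Coding sequences were aligned globally, and identity is over aligned bases.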

Additional observations from a re-analysis of the deposited data

How the results depend on the processing

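All 63 alternative values of the 7 members' log2 fold changes kept the sign of the reported ones. The largest move was 0.25, and 4 moved by more than the spread between replicates, all with library totals as the scale (Cyp2c29 1.87, Cyp2c55 2.43, Cyp2c65 0.72, Cyp2c66 1.12). The log2 fold change of the member sum was 1.53 with library totals, 1.33 without Cyp2c55, 1.58 for plus strand members and -1.31 for minus strand members, the last pair chosen after seeing the data, and 1.44 to 1.47 with each library left out. In vehicle, CPM in place of FPKM put Cyp2c55 at place 4 and Cyp2c68 at place 5. The count of all genes called, 4401, was 2722 in DESeq2, and 2899 (without vehicle replicate 2) to 4557 with each library left out. DESeq2 called 1 other Cyp2c gene in place of 3. The median of those genes was 0.62 with at least 50 counts in 2 libraries, where fewer genes were tested, -1.05 in DESeq2, -1.06 with no filter, and -0.62 to 0.61 with each library left out. That of the arachidonate list was -0.55 in DESeq2 and -0.54 with no filter. With each library left out Pdlim1 had -0.016 to 0.11, Noc3l -0.25 to -0.067, and Nr1i2 had -0.064 to 0.0026, and 0.044 with library totals. Same-numbered libraries did not deviate together (correlation -0.024 across genes). With 2 libraries per group this cannot settle whether the numbers pair the samples. With the replicate block 4703 genes were called and the member sum had 1.45. Depth limits Cyp2c67, Cyp2c70 and the pseudogenes, and 2 libraries per group limit every error given.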

Other observations

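Over 9380 tested genes whose log2 CPM averaged 3 or more, the profiles nearest to that of Cyp2c55 across the 4 libraries, by Euclidean distance between centred log2 CPM values, were those of Fam20c (distance 0.37), Cyp2c29 (0.56), Atp11a (0.61), Gm10076 (0.67) and Cyp3a11 (0.69). Fam20c, which encodes a kinase of secreted proteins, went from 7.99 ± 1.29 to 32.8 ± 1.02 CPM (SD, n = 2), and Atp11a, which encodes a lipid flippase, from 30.1 ± 3.30 to 102 ± 7.71 CPM. Cyp3a11 went from 2746 ± 25.2 to 8710 ± 34.5 CPM. Gm10076 went from 4.89 ± 1.23 to 24.7 ± 9.43 CPM, a spread that was wide for its level. With 4 libraries in 2 groups, this likeness is mainly a likeness of fold change.

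Within single libraries, which no scaling between libraries can alter, Cyp2c55 stood at 0.388 and 0.394 of the Cyp2c65 level in FPKM with vehicle and at 1.28 and 1.27 with SGC-CBP30. Its ratio to Cyp2c68 went from 0.942 and 1.02 to 11.0 and 12.6. Between the close copies Cyp2c68 and Cyp2c67 the ratio was 23.2 and 26.5 with vehicle and 35.7 and 44.0 with SGC-CBP30, the last resting on 32 and 24 counts of Cyp2c67.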
